A study of Mus musculus with 9 samples.

Results

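The endothelial identity genes described here are 10 genes that mark the cells lining blood vessels: Pecam1, Cdh5, Kdr, Tek, Tie1, Flt1, Eng, Emcn, Egfl7 and Cldn5. They were taken by gene symbol from a table of 55401 genes, and all 10 were found once. They were measured by poly(A) RNA-seq in 9 cultures of primary neonatal mouse ventricular myocytes (NMVMs), the heart muscle cells of wild-type (WT) C57BL/6J pups 1 day old, in 3 groups of 3. Control cultures stayed at normal oxygen in complete medium, DMEM with 10% fetal bovine serum. Hypoxia cultures spent 6 h in a sealed AnaeroPack chamber in DMEM free of glucose and serum. Hypoxia + rSRGN cultures had the same 6 h with recombinant serglycin (rSRGN), a proteoglycan core protein, in the medium. Low oxygen, loss of glucose and loss of serum came together, so their parts cannot be told apart. The labels name a myocyte culture and not endothelial cells, and do not say whether the 3 cultures of a group came from separate isolations. The p-values therefore measure the spread between these cultures, which may be technical.

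Endothelial cells hold together through VE-cadherin (Cdh5), claudin-5 (Cldn5) and PECAM-1 (Pecam1), and read vessel growth factors through a small set of surface receptors. VEGF-A signals chiefly through the tyrosine kinase receptor VEGFR2 (Kdr), while VEGFR1 (Flt1) binds VEGF-A tightly, signals weakly and is also made as a soluble decoy. The angiopoietins act on the receptor Tie2 (Tek), with Tie1 as its partner, and endoglin (Eng) is a co-receptor for BMP9 and BMP10 on the kinase ALK1 (Acvrl1). Endomucin (Emcn) is a surface sialomucin, and Egfl7 is a secreted matrix protein whose gene also hosts the microRNA miR-126. Several of these genes are not private to endothelium. Among them, Eng is also made by fibroblasts and other mesenchymal cells, and Flt1 by monocytes.

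Before any test, the levels answered whether endothelial transcripts were present in a culture labelled as myocytes. Every one of the 10 genes had fragments in every library, from 7 fragments for Cldn5 to 9246 for Eng. Levels are given as CPM, counts set to a common library total with TMM scaling, and, where genes are compared with each other, as CPM per kilobase of exon. In control, Eng stood first at 43.1 ± 1.45 CPM per kilobase (SD, n = 3). Cdh5 followed at 4.91 ± 1.09, Tek at 3.57 ± 0.35 and Flt1 at 2.91 ± 0.10 CPM per kilobase. Egfl7, Pecam1 and Tie1 lay between 2.22 and 2.52 CPM per kilobase and overlapped each other, and Emcn, Cldn5 and Kdr came last at 1.31, 1.17 and 1.04, below every Tie1 library and overlapping each other. Eng alone made up 62.7 to 70.2% of the summed per-kilobase level of the 10 genes in control and 84.7 to 88.2% in the 6 hypoxic libraries. The sum of the 10 genes was 286.0 to 313 CPM in control, 508 to 584 in hypoxia and 590 to 592 in hypoxia + rSRGN. Without Eng and Flt1 it ran the other way, at 73.3 to 104 CPM in control, 49.9 to 65.1 in hypoxia and 52.2 to 66.8 in hypoxia + rSRGN. Eng and Flt1 are the genes whose hypoxic libraries all lay above control, so the direction of the smaller sum follows from leaving them out. Both sums are descriptions and were not tested. In bulk RNA, a change in the number of endothelial cells and a change in RNA per cell cannot be told apart.

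**Figure D1:**
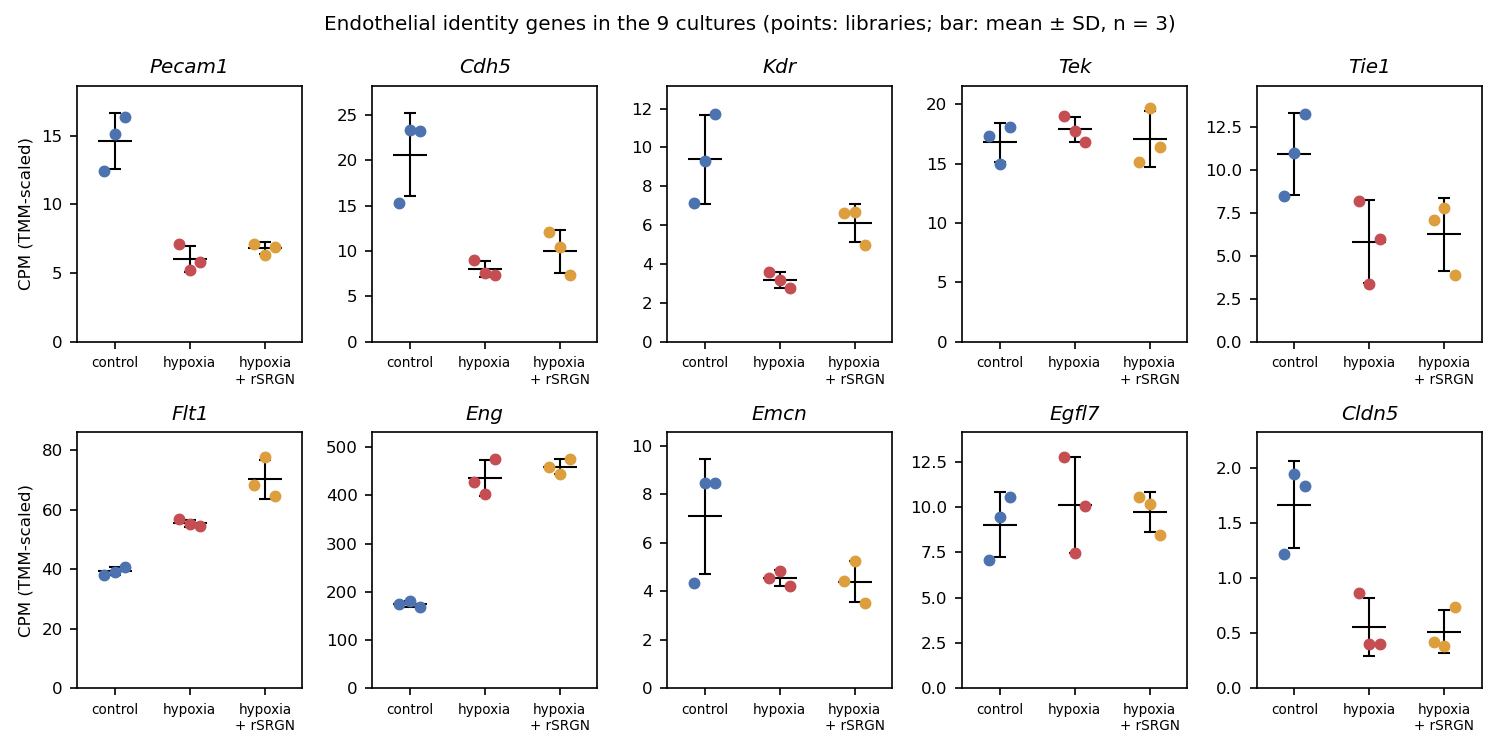
Level of each of the 10 endothelial genes, in CPM scaled by TMM on a linear axis from 0, in the 3 control, 3 hypoxia and 3 hypoxia + rSRGN libraries. Points are libraries and bars the mean ± SD; Kdr in hypoxia + rSRGN (4.97 to 6.70 CPM) lies between hypoxia (2.78 to 3.60) and control (7.14 to 11.7), while Eng and Flt1 lie above control in all 6 hypoxic libraries.

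On GRCm38, the build of the counting annotation, Kdr (ENSMUSG00000062960.10) spans chr5:75932827-75978458 and Flt1 (ENSMUSG00000029648.13) chr5:147561604-147726011, both on the minus strand. Tek (ENSMUSG00000006386.15) lies at chr4:94739289-94874976 on the plus strand and Tie1 (ENSMUSG00000033191.14) at chr4:118471191-118490061 on the minus strand. Eng (ENSMUSG00000026814.16, chr2:32646595-32682669) and Egfl7 (ENSMUSG00000026921.20, chr2:26580014-26593120) are on the plus strand. Cdh5 (ENSMUSG00000031871.9, chr8:104101625-104144511), Emcn (ENSMUSG00000054690.17, chr3:137341067-137432185) and Cldn5 (ENSMUSG00000041378.2, chr16:18776847-18778262) are also on the plus strand, and Pecam1 (ENSMUSG00000020717.19, chr11:106654217-106750628) on the minus strand. Fragments were summed over all exons of each gene, UTRs included, without regard to strand. Of the 10 genes, 8 share no exon base with another gene. Eng shares 61 bases (1.507% of its exons) with Fpgs on the opposite strand, and Egfl7 shares 264 bases with Gm20532, 73 with Mir126a, 58 with Mir126b and 64 with Agpat2, so Egfl7 counts are the less certain.

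The 250 bases before the start site are shown for 4 genes that moved in different ways: the receptor pair Kdr and Flt1, the gene that rose most, Eng, and the gene with the fewest fragments, Cldn5. The sequences are RefSeq's on GRCm38.p6, read 5′ to 3′ on the strand of the gene, and capitals mark GGAA or its complement TTCC, the core bound by ETS factors such as Erg and Fli1. The windows are chr5:75978456-75978705 (minus strand) for Kdr, chr5:147726012-147726261 (minus) for Flt1, chr2:32646345-32646594 (plus) for Eng and chr16:18776597-18776846 (plus) for Cldn5.
Kdr: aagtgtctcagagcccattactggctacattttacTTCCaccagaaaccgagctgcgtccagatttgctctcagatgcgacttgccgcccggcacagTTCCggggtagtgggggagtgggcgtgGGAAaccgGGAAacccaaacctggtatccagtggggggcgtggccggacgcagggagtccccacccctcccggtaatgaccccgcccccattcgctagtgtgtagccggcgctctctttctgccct
Flt1: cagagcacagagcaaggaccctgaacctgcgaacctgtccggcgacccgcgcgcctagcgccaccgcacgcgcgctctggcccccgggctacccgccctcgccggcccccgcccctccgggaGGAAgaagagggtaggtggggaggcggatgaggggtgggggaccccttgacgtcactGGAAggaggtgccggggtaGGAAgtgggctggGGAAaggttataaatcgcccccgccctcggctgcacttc
Eng: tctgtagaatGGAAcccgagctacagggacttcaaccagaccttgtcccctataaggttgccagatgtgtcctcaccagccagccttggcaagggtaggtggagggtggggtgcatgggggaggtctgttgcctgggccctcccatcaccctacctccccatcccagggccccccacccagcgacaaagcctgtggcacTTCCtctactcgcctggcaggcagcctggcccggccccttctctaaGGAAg
Cldn5: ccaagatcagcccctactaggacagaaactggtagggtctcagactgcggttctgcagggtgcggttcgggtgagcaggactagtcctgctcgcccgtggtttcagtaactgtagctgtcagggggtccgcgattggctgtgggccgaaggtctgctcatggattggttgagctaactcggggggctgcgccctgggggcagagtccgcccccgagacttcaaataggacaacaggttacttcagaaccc
Of the 10 genes, 8 had a window in the RefSeq table, and Pecam1 and Cdh5 had none. On either strand, GGAA was found in 7 of the 8 windows (87.5%) and in 93.4% of the 32851 promoter windows of the same length. The longer CAGGAA, which contains GGAA, was found in 4 of 8 (50.0%) against 25.7% of all. The hypoxia response core ACGTG was found in 0 of 8 against 16.6%, and TATAAA in 1 of 8 (12.5%), that of Flt1, against 12.4%. These are matches of letters in a short window and not binding sites.

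Hypoxia was first compared with control, which asks what 6 h of deprivation did to the endothelial transcripts. Pecam1, Cdh5, Kdr, Tie1, Emcn and Cldn5 fell, by 1.56-fold for Emcn to 2.94-fold for Cldn5 and Kdr, while Eng rose 2.49-fold. Flt1 was higher by 1.41-fold, under the fold limit, and Tek and Egfl7 did not pass the test. Calls needed both an adjusted p under 0.05 (edgeR's quasi-likelihood test, Benjamini-Hochberg over the 16762 genes tested) and a change of at least 1.5-fold. By that rule 6 of the 10 were lower and 1 higher, against 25.1% lower and 26.4% higher (51.6% called) of all genes tested. The median log2 difference of the 10 was -0.77, against 0.05 over all genes. The 2 groups did not overlap for 7 of 10 genes, against 73.0% of all genes tested. Cldn5 passed the low-count filter in 3 control libraries and in 1 library of each hypoxic group, so its place among the tested genes came with a high control level and its fall is no support for the count. Among the other 9 genes 5 were lower and 1 higher.

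**Figure D2:**
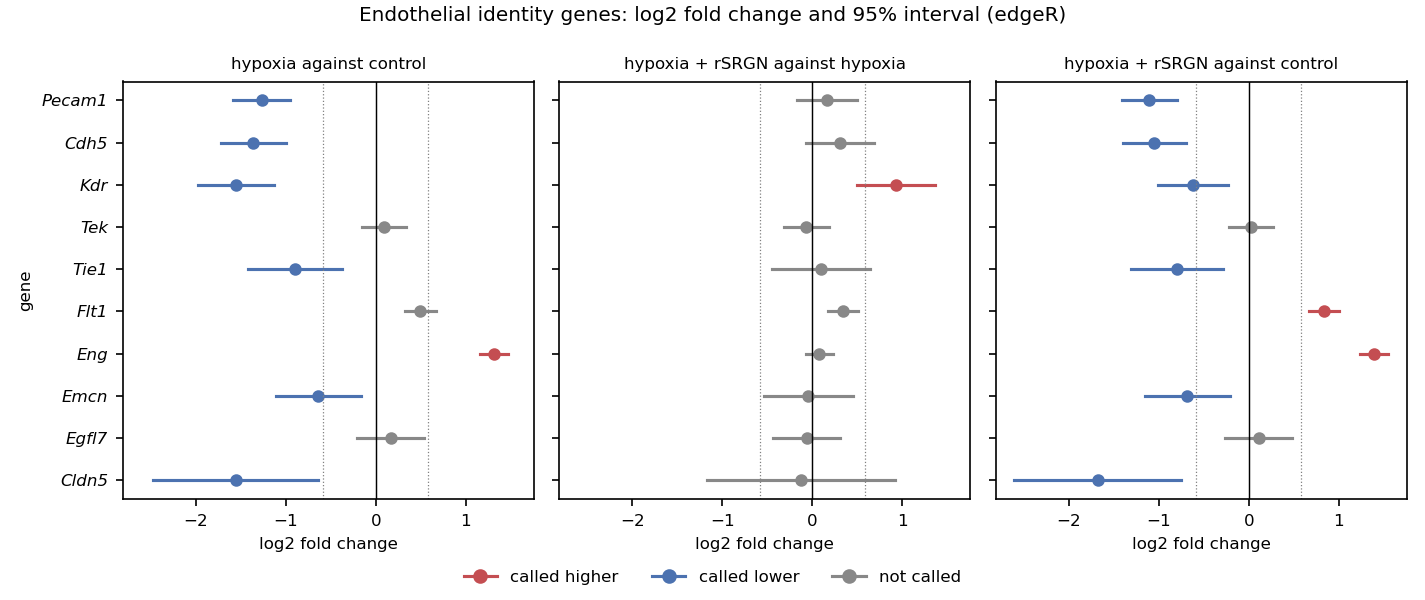
Log2 fold change of the 10 endothelial genes in the 3 comparisons, with the 95% interval from edgeR; colour marks genes called higher or lower and the dotted lines the 1.5-fold limit. In hypoxia against control 6 genes lie left of the limit and Eng right of it, and in hypoxia + rSRGN against hypoxia Kdr alone of the 10 is called, at 0.93 ± 0.21 (SE).

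Hypoxia + rSRGN was then compared with hypoxia, which asks what the added protein did in deprived cultures. Kdr rose 1.91-fold and was the only one of the 10 genes called (1 higher and 0 lower, against 2.27% and 0.859% of all genes, 3.13% in either direction). Flt1 was 1.27-fold higher, at a log2 difference of 0.34 ± 0.08 (SE) and an adjusted p of 0.0063 (0.00052 to 0.073 over the alternative settings), under the fold limit. The other 8 had adjusted p-values of 0.27 to 0.93. At unadjusted p under 0.05, Kdr and Flt1 remained the only 2 of the 10, and DESeq2 also called Kdr higher and none of the 10 lower. The groups did not overlap for 2 of 10 genes, Kdr and Flt1, against 32.0% of all genes tested, and the median log2 difference of the 10 was 0.09 against -0.03. Over all genes 525 were called, and 321 when hypoxia replicate 3 was left out.

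Hypoxia + rSRGN was last compared with control, which shares its control libraries with the first comparison. Eng and Flt1 rose 2.63-fold and 1.79-fold. Pecam1, Cdh5, Kdr, Tie1, Emcn and Cldn5 fell, by 1.54-fold for Kdr to 3.21-fold for Cldn5. That is 2 higher and 6 lower of 10 (5 lower of 9 without Cldn5, which had the same limit), against 24.1% and 24.7% of all genes (48.8% called), with a median log2 difference of -0.65 against 0.01. The groups did not overlap for 7 of 10 genes, against 73.3% of all. Without hypoxia + rSRGN replicate 3 the count of lower genes was 3, since Kdr, Tie1 and Emcn lost their calls.

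The libraries of all 3 groups also differed in the markers of other heart cells, and the counts that follow for hypoxia stand beside 26.4% higher and 25.1% lower of all genes tested. All 10 cardiomyocyte markers fell in hypoxia, with summed levels of 41116 to 49928 CPM in control, 3619 to 5550 in hypoxia and 7045 to 7561 in hypoxia + rSRGN. The 10 macrophage and leukocyte markers summed to 44.3 to 53.9 CPM in control, 11.1 to 12.8 in hypoxia and 12.8 to 15.9 with rSRGN. All 10 were called lower in hypoxia, but some passed the low-count filter through control, such as Adgre1 (4.25 ± 0.98 CPM in control and 0.116 ± 0.20 in hypoxia), so that count is a description. Of 8 fibroblast markers 6 rose (8657 to 10243, 17099 to 19890 and 18917 to 19478 CPM), as did 4 of 5 epicardial markers (144 to 158, 577 to 616 and 538 to 600 CPM). Of 10 mural cell markers 2 rose and 2 fell (2100 to 2437, 2464 to 2770 and 2357 to 2479 CPM). Of 6 platelet and erythroid markers 3 could be tested and 2 of them rose, and Hba-a1 and Hbb-bs were at 0 in all control and all rSRGN libraries. In hypoxia + rSRGN against hypoxia, 9 of 10 cardiomyocyte markers and 2 of 10 mural markers were higher, 1 of 8 fibroblast markers was lower, and 0 of 10 leukocyte and 0 of 5 epicardial markers were called, beside 2.27% higher and 0.859% lower of all genes. The part of these cell types in the endothelial results was not tested. Fragments counted per library were 21669017 to 22781557 in control, 16583985 to 18148474 in hypoxia and 16640239 to 20826701 in hypoxia + rSRGN, so a low gene is measured with somewhat less precision in the hypoxic libraries.

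The VEGF receptors differed in direction against control, where Kdr fell and Flt1 was higher, and both were higher with rSRGN than in hypoxia. Flt1 passed the fold limit only in hypoxia + rSRGN against control. Kdr, the main signalling receptor for VEGF-A, stood at 7.14, 9.30 and 11.7 CPM in the control libraries, 3.60, 3.18 and 2.78 in hypoxia, and 6.61, 6.70 and 4.97 in hypoxia + rSRGN. Every hypoxia library lay below every other library, and every rSRGN library lay below every control library. Against control, Kdr fell by 1.55 ± 0.20 (SE) on the log2 scale in hypoxia (edgeR, adjusted p 5.6e-07). Against hypoxia it rose by 0.93 ± 0.21 with rSRGN (95% interval 0.49 to 1.37, adjusted p 0.0045), and over 18 alternative settings this difference stayed between 0.84 and 1.07 with adjusted p-values of 8.3e-05 to 0.031. Against control the rSRGN cultures were lower by a log2 difference of -0.62 ± 0.19 (adjusted p 0.0059). That last call was lost when library size alone was used for scaling (-0.57), without control replicate 3 (-0.44) and without hypoxia + rSRGN replicate 3 (-0.50).

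Flt1, the high-affinity and weakly signalling receptor, lay above control in both hypoxic groups. It stood at 38.2, 38.9 and 40.8 CPM in control, 56.7, 55.2 and 54.3 in hypoxia and 68.3, 77.5 and 64.6 in hypoxia + rSRGN. The 3 groups formed 3 steps with no overlap. The log2 difference was 0.50 ± 0.08, under the fold limit, for hypoxia against control (edgeR, adjusted p 1.5e-05, 95% interval 0.33 to 0.67). It was 0.84 ± 0.08 for hypoxia + rSRGN against control (adjusted p 6.8e-09). Within each library, the log2 ratio of Kdr to Flt1 per kilobase was -1.51 ± 0.31 (SD, n = 3) in control, -3.54 ± 0.15 in hypoxia and -2.95 ± 0.17 in hypoxia + rSRGN, a measure that no scaling between libraries can move. Each of the 3 differences had an exact two-sided permutation p of 0.1, the smallest that 3 against 3 libraries can give (0.129 adjusted over 9 ratio tests).

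**Figure D3:**
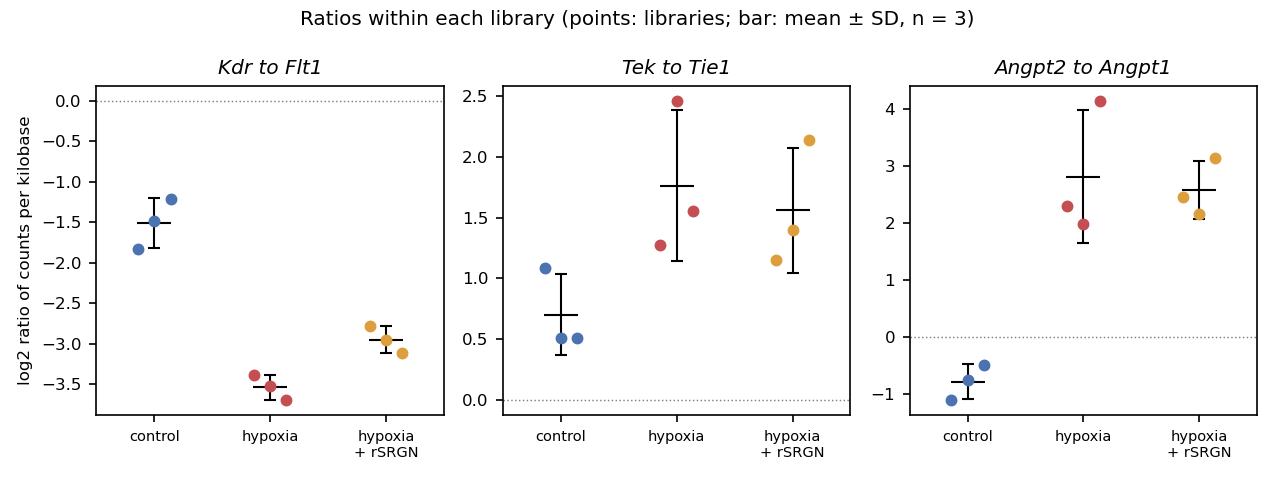
Log2 ratio of Kdr to Flt1, Tek to Tie1 and Angpt2 to Angpt1 within each library, from counts per kilobase. Points are libraries and bars the mean ± SD; the Kdr to Flt1 ratio is -1.51 in control, -3.54 in hypoxia and -2.95 in hypoxia + rSRGN, and Angpt2 to Angpt1 changes sign between control (-0.78) and the hypoxic groups (2.81 and 2.58).

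The ligands and other receptors of this family did not move as one. Of 8 VEGF ligands and co-receptors, 4 rose and 2 fell in hypoxia (26.4% and 25.1% of all genes), 0 were called with rSRGN against hypoxia (3.13% of all genes), and 5 rose and 1 fell in hypoxia + rSRGN against control (24.1% and 24.7%). Vegfa, the ligand of both receptors, was at 204 ± 20 CPM in control, 187 ± 14 in hypoxia and 224 ± 12 in hypoxia + rSRGN, with log2 differences of -0.13 (adjusted p 0.17) and then 0.26 (adjusted p 0.030, under the fold limit). Pgf, a ligand of Flt1 and not of Kdr, rose in hypoxia by 0.87 ± 0.21 on the log2 scale, from 3.70 to 6.74 CPM. Vegfb, the other ligand of Flt1 alone, fell by 0.63 ± 0.10, from 51.5 to 33.2 CPM, and lost this call without hypoxia replicate 3 or with library size alone for scaling (-0.57 in both). The lymphatic growth factors Vegfc and Vegfd rose, from 9.69 to 30.0 CPM and from 33.3 to 84.4 CPM, and their receptor Flt4 rose from 10.53 ± 1.1 to 16.97 ± 1.3 CPM. Nrp1, a co-receptor that presents VEGF-A to Kdr, fell by 1.83 ± 0.07 in hypoxia, from 209.6 ± 12 to 59.0 ± 2.0 CPM, and stood at 68.9 ± 2.1 with rSRGN.

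**Figure D4:**
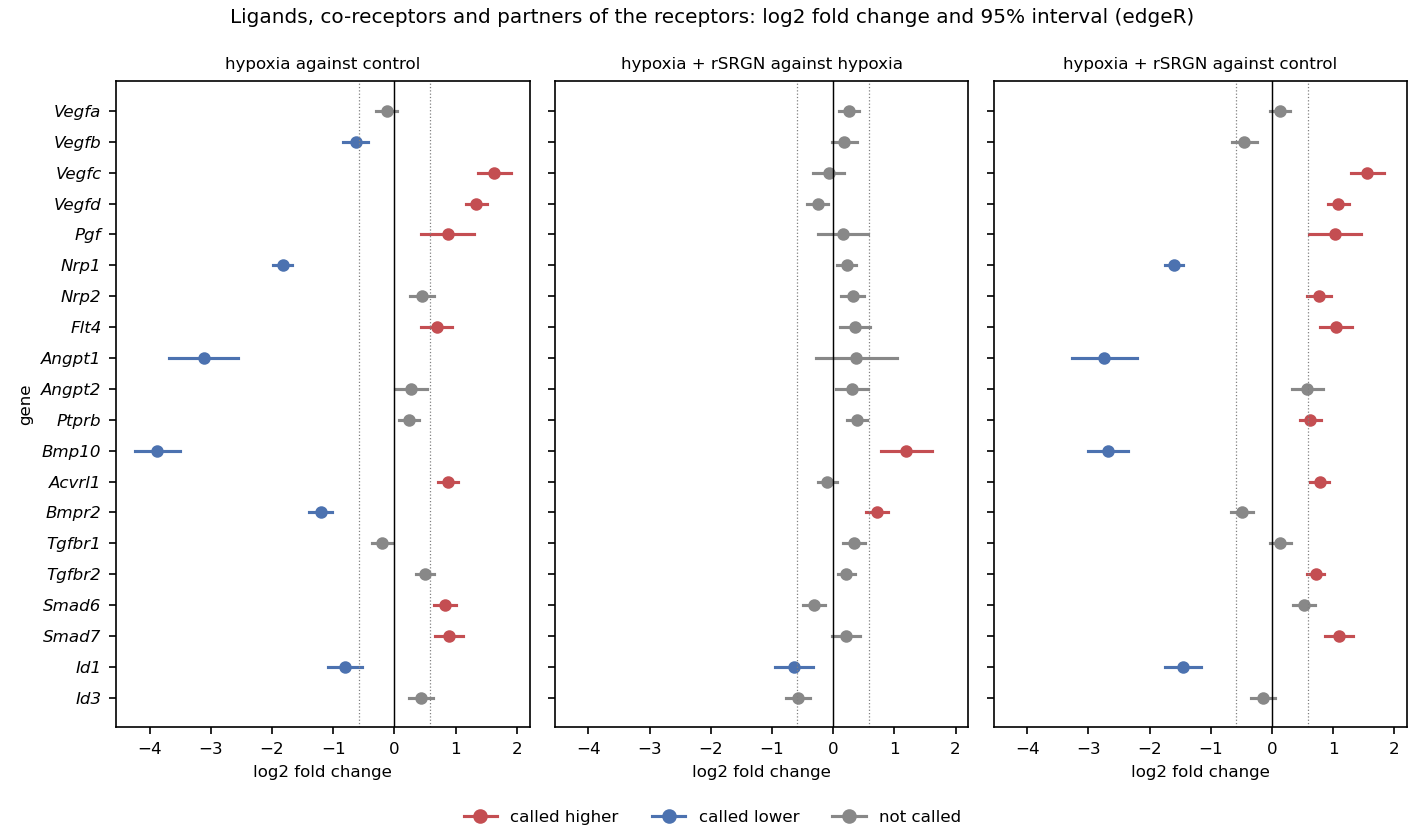
Log2 fold change, with the 95% interval from edgeR, of the ligands, co-receptors and partners of the endothelial receptors in the 3 comparisons; colour marks genes called and dotted lines the 1.5-fold limit. Angpt1 (-3.12) and Bmp10 (-3.87) fell most in hypoxia, and with rSRGN against hypoxia Bmp10 (1.19) and Bmpr2 (0.72) are called higher and Id1 (-0.64) lower.

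The Tie receptors also parted. Tek stood at 17.3, 14.9 and 18.1 CPM in control, 19.0, 17.8 and 16.9 in hypoxia and 15.1, 19.7 and 16.4 in hypoxia + rSRGN. The 3 groups overlapped throughout, with 95% intervals of the log2 difference of -0.15 to 0.34 for hypoxia against control, -0.31 to 0.18 for rSRGN against hypoxia and -0.22 to 0.27 for rSRGN against control, all inside the 1.5-fold limit. Tie1, its orphan partner, stood at 8.49, 10.97 and 13.2 CPM in control, 8.17, 3.35 and 5.97 in hypoxia and 7.09, 7.80 and 3.86 in hypoxia + rSRGN. The hypoxic libraries all lay below the control libraries, with hypoxia replicate 1 just under control replicate 1. Tie1 fell in hypoxia by 0.90 ± 0.25 on the log2 scale (adjusted p 0.0032) and in hypoxia + rSRGN against control by 0.80 ± 0.25 (adjusted p 0.0070). The second call was lost without hypoxia + rSRGN replicate 3 (-0.55, adjusted p 0.056) and under DESeq2 (adjusted p 0.070). The log2 ratio of Tek to Tie1 per kilobase was 0.70 ± 0.33 in control, 1.76 ± 0.62 in hypoxia and 1.56 ± 0.51 in hypoxia + rSRGN (exact permutation p 0.1 for either group against control, and 0.6 between them).

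Of the ligands of Tek, the agonist Angpt1 fell and the context-dependent antagonist Angpt2 was not called. Angpt1 went from 22.7 ± 4.4 CPM in control to 2.59 ± 1.4 in hypoxia and 3.38 ± 1.1 in hypoxia + rSRGN, a log2 fall of 3.12 ± 0.27 in hypoxia (adjusted p 7.2e-10). Cardiomyocyte markers fell in the same libraries, and their part in the Angpt1 values was not tested. Angpt2 went from 9.25 ± 0.56 to 11.2 ± 1.1 and 13.8 ± 0.67 CPM, at log2 differences from control of 0.27 and 0.58, the second just under the fold limit. In hypoxia + rSRGN against control it was called higher in 7 of 18 alternative settings. Among them was no fold limit, which reuses the main fit. Others were library size alone (0.63) and leaving out control replicate 3 (0.62), hypoxia + rSRGN replicate 2 (0.59) or hypoxia + rSRGN replicate 3 (0.60). The log2 ratio of Angpt2 to Angpt1 per kilobase was -0.78 ± 0.31 in control, 2.81 ± 1.16 in hypoxia and 2.58 ± 0.51 in hypoxia + rSRGN, with exact permutation p-values of 0.1 against control and 0.9 between the hypoxic groups. Ptprb (VE-PTP), a phosphatase that acts on Tek and associates with VE-cadherin, stood at 95.1 ± 6.8, 112 ± 4.7 and 147 ± 15 CPM. Its call in hypoxia + rSRGN against control (0.63 ± 0.08) was lost without control replicate 1 (0.58) or hypoxia + rSRGN replicate 2 (0.55). Angpt4 was too low to be tested.

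Eng was the only one of the 10 genes that rose past the fold limit in both comparisons with control. It stood at 174, 181 and 169 CPM in control, 427, 403 and 476 in hypoxia and 458, 445 and 475 in hypoxia + rSRGN. All hypoxic libraries lay far above control and the 2 hypoxic groups overlapped. The log2 rise was 1.32 ± 0.07 in hypoxia (adjusted p 4.9e-13) and 1.40 ± 0.07 in hypoxia + rSRGN against control (adjusted p 2.4e-13), and 0.08 (95% interval -0.07 to 0.23, adjusted p 0.51) between the hypoxic groups. Of 8 fibroblast markers 6 rose in the same libraries, where 26.4% of all genes rose, among them Dcn, the matrix proteoglycan decorin (226 ± 17 to 627 ± 10 CPM, a log2 rise of 1.47 ± 0.07), and the part of fibroblasts in the Eng rise was not tested.

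Of 10 endoglin partners and SMAD1/5 targets, 9 were tested, and 3 rose and 3 fell in hypoxia, where 26.4% of all genes rose and 25.1% fell. The ligand Bmp10 fell by 3.87 ± 0.18 on the log2 scale, from 47.0 ± 4.5 to 3.18 ± 1.4 CPM, and rose with rSRGN against hypoxia by 1.19 ± 0.20 to 7.34 ± 0.75 CPM (adjusted p 0.00044). The type II receptor Bmpr2 fell from 133 ± 4.8 to 57.6 ± 7.7 CPM and rose with rSRGN to 94.7 ± 8.5 (0.72 ± 0.09, adjusted p 4.7e-05). The type I receptor Acvrl1 (ALK1) rose from 60.1 ± 4.4 to 110.1 ± 6.6 CPM and was 103 ± 3.7 with rSRGN. Bmp10 is made chiefly by heart muscle, and the 10 cardiomyocyte markers fell in the same libraries and 9 of them rose with rSRGN, and their part in the Bmp10 values was not tested. Among the targets, the inhibitory Smad6 and Smad7 rose in hypoxia (77.2 to 137 and 61.1 to 113 CPM), while Id1 fell from 32.1 ± 1.8 to 18.4 ± 5.1 CPM. Id1 fell again with rSRGN to 11.8 ± 0.53 CPM (-0.64 ± 0.15, adjusted p 0.0047), a call lost without hypoxia replicate 3 (-0.42). Id3 went from 69.8 to 94.3 and 63.4 CPM, with a log2 difference of -0.57 ± 0.10 between the hypoxic groups that lay just under the fold limit. It was called lower in 5 of 18 alternative settings, among them no fold limit, which reuses the main fit. The others were library size alone (-0.60) and leaving out hypoxia replicate 2 (-0.68), hypoxia + rSRGN replicate 1 (-0.59) or hypoxia + rSRGN replicate 3 (-0.61). Tgfbr1 and Tgfbr2, the TGF-β receptors, had log2 differences of -0.20 and 0.50 in hypoxia and were not called, while Tgfbr2 rose in hypoxia + rSRGN against control by 0.71 ± 0.07 (adjusted p 4.5e-09). With rSRGN against hypoxia 2 of the 9 rose and 1 fell (2.27% and 0.859% of all genes), and against control 3 rose and 2 fell (24.1% and 24.7%). Gdf2, which encodes BMP9, was too low to be tested.

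Pecam1 and Cdh5, which join endothelial cells to each other, both fell in hypoxia. Pecam1 stood at 12.4, 15.1 and 16.4 CPM in control, 7.09, 5.26 and 5.79 in hypoxia and 7.15, 6.31 and 6.92 in hypoxia + rSRGN. Cdh5, the adhesion molecule of endothelial adherens junctions, stood at 15.3, 23.3 and 23.2 CPM in control, 9.02, 7.63 and 7.36 in hypoxia and 12.1, 10.45 and 7.34 in hypoxia + rSRGN. In both genes every control library lay above every hypoxic library, and the 2 hypoxic groups overlapped. Pecam1 fell in hypoxia by 1.27 ± 0.15 on the log2 scale (adjusted p 1.3e-07) and Cdh5 by 1.36 ± 0.17 (adjusted p 3.5e-07). Macrophage and leukocyte markers also fell in these libraries, and their part in the Pecam1 fall was not tested. With rSRGN against hypoxia the log2 difference was 0.16 (95% interval -0.17 to 0.50) for Pecam1 and 0.31 (-0.07 to 0.69) for Cdh5, so for Cdh5 a 1.5-fold difference is inside the interval.

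Cldn5, which seals endothelial tight junctions, stood at 1.21, 1.94 and 1.84 CPM in control, 0.86, 0.40 and 0.41 in hypoxia and 0.42, 0.39 and 0.74 in hypoxia + rSRGN, from 27 to 43 fragments in control and 7 to 16 in the hypoxic libraries. Control lay above both hypoxic groups. The log2 difference from control was -1.56 ± 0.44 in hypoxia (95% interval -2.48 to -0.64) and -1.68 ± 0.45 in hypoxia + rSRGN. These values are a description, since Cldn5 passed the low-count filter in 3 control libraries but in 1 library of each hypoxic group, a filter that favours a gene high in control. With at least 1 count in any library as the filter the differences were -1.61 and -1.72. No difference between the hypoxic groups was detected (-0.12, 95% interval -1.17 to 0.92), and a 1.5-fold change in either direction is inside that interval. Of 10 junction partners, which endothelial cells share with heart muscle and epithelium, 9 were tested, 6 fell and 0 rose in hypoxia (25.1% and 26.4% of all genes), 0 were called between the hypoxic groups (3.13%) and 5 fell in hypoxia + rSRGN against control (24.7%). The largest falls were in Ctnna1, α-catenin, from 1693 ± 83 to 530.4 ± 44 CPM, and Cdh2, N-cadherin, from 775 ± 11 to 322 ± 40 CPM. Both are abundant in cardiomyocytes, whose markers fell in the same libraries, and their part was not tested.

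The surface sialomucin Emcn was the least certain fall. It stood at 4.36, 8.49 and 8.46 CPM in control, 4.57, 4.85 and 4.23 in hypoxia and 4.41, 5.25 and 3.54 in hypoxia + rSRGN. Control replicate 1 lay inside both hypoxic groups. The log2 fall was 0.64 ± 0.23 in hypoxia (adjusted p 0.016), and the call was lost with library size alone for scaling (-0.57) and without control replicate 2 (-0.51, adjusted p 0.085) or 3 (-0.51, adjusted p 0.084). In hypoxia + rSRGN against control it was 0.68 ± 0.23 (adjusted p 0.011), lost without control replicate 2 (-0.55), control replicate 3 (-0.55) or hypoxia + rSRGN replicate 3 (-0.55). Egfl7, the matrix protein, stood at 7.05, 9.44 and 10.6 CPM in control, 12.8, 7.45 and 10.1 in hypoxia and 10.55, 10.2 and 8.45 in hypoxia + rSRGN, with overlap between all groups. Its log2 difference in hypoxia was 0.17, with a 95% interval of -0.20 to 0.54 that stays inside the 1.5-fold limit.

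Control replicate 1 was the lowest control library for 8 of the 10 genes, all but Tek and Eng. The log2 falls of Pecam1, Cdh5 and Kdr in hypoxia nonetheless kept their calls in all 18 alternative settings, with ranges of -1.40 to -1.18, -1.56 to -1.28 and -1.74 to -1.37. Among these settings, no fold limit reuses the main fit and so cannot remove a call.

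The transcription factors known for endothelial identity were called in both directions, as were genes overall. Of 11 tested, 3 rose and 4 fell in hypoxia (26.4% and 25.1% of all genes tested), 0 were called between the hypoxic groups (3.13%), and 3 rose and 2 fell in hypoxia + rSRGN against control (24.1% and 24.7%). Erg, an ETS factor that maintains endothelial genes, fell from 3.65 ± 0.93 to 1.10 ± 0.61 and 0.695 ± 0.20 CPM. Its relative Fli1, which leukocytes also express, rose in hypoxia + rSRGN against control from 10.2 ± 0.96 to 20.1 ± 0.41 CPM, and was 20.6 ± 1.7 in hypoxia. Klf2 and Klf4, factors that flow and many stresses induce, rose in hypoxia by 1.23 ± 0.14 and 1.30 ± 0.09 on the log2 scale, to 52.3 and 233 CPM. Lmo2, a bridging factor, fell in hypoxia by 0.72 ± 0.28 (adjusted p 0.027), a call lost without control replicate 1 (-0.63), hypoxia replicate 2 (-0.68) or hypoxia replicate 3 (-0.48).

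Of 20 other pan-endothelial genes, 19 were tested, and 6 rose and 8 fell in hypoxia, where 26.4% of all genes rose and 25.1% fell (51.6% called). In hypoxia + rSRGN against control 6 rose and 9 fell (24.1% and 24.7% of all genes). Cd34, the sialomucin of progenitors, capillaries and some fibroblasts, rose from 142 ± 4.2 to 335 ± 8.7 CPM. Myct1, a gene of vascular endothelium, had a log2 rise of 1.31 ± 0.14. In hypoxia + rSRGN against control Plvap, the diaphragm protein of fenestrae, rose from 18.1 ± 1.4 to 40.7 ± 2.4 CPM. Adgrl4, an adhesion receptor of vessels and one of those 8, was at 6.29 ± 2.3 CPM in control, 0.262 ± 0.13 in hypoxia and 0.593 ± 0.18 with rSRGN. Like Cldn5 it passed the low-count filter through control, so its difference is a description. S1pr1, a sphingosine-1-phosphate receptor that cardiomyocytes also make, fell from 134 ± 4.1 to 6.99 ± 1.3 CPM. Between the hypoxic groups S1pr1 was higher with rSRGN (0.62 ± 0.14), lost without hypoxia replicate 3 (0.49) or hypoxia + rSRGN replicate 1 (0.47). Mmrn2, an endothelial matrix protein, was lower (-0.73 ± 0.25, adjusted p 0.0498), lost in 8 of the alternative settings.

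Of 18 genes of endothelial subtypes, 16 were tested, and 5 rose and 3 fell in hypoxia, close to the 51.6% called over all genes. The endocardial gene Nfatc1 rose from 31.8 ± 6.4 to 77.6 ± 4.3 CPM, and the arterial gene Bmx from 4.50 to 10.8 CPM. In hypoxia + rSRGN against control the arterial gene Efnb2 rose from 53.2 ± 3.5 to 145 ± 4.1 CPM. Gja5 and Prox1, which mark arterial and lymphatic endothelium but are also made by heart muscle, fell, with log2 differences of -3.90 ± 0.14 and -3.96 ± 0.13. With rSRGN against hypoxia, Gja4, the arterial connexin 37, fell by 1.79 ± 0.28 (adjusted p 0.00027), from 4.79 ± 1.4 to 1.38 ± 0.33 CPM, while Gja5 (0.68, lost without hypoxia replicate 3) and Prox1 (0.78) rose.

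Of 13 genes of endothelial activation and tip cells, 7 rose and 1 fell in hypoxia, beside 26.4% and 25.1% of all genes. Edn1, the vasoconstrictor endothelin-1, rose from 10.3 ± 1.5 to 68.7 ± 5.3 CPM, and F3, tissue factor, from 7.63 ± 0.74 to 26.5 ± 4.7 CPM. The tip cell gene Cxcr4 fell from 2.78 ± 0.21 to 0.960 ± 0.35 CPM. With rSRGN against hypoxia, Thbd, the anticoagulant thrombomodulin, was the one gene of these 13 called (3.13% of all genes), at 14.9 ± 2.8 and 22.9 ± 2.0 CPM. Its log2 rise of 0.61 ± 0.12 was lost without hypoxia replicate 2 (0.52), hypoxia replicate 3 (0.56) or hypoxia + rSRGN replicate 3 (0.57). Edn1, F3, Klf2 and Klf4 are not private to endothelium, and which cells carried their change was not tested.

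The 10 genes did not share 1 pattern over the 9 libraries. The mean of their standardized log2 CPM had a Pearson r with single members from -0.57 for Eng and -0.31 for Flt1, through 0.14 for Tek, to 0.80 for Cdh5 and 0.91 for Tie1. Each member is itself part of that mean, which raises its r, while genes outside the 10 are not. Among 14248 other genes with a mean of at least 1 CPM, the 5 with the highest r to that mean were Adarb1 (0.92), Mast4 (0.92), Pcdhgb7 (0.92), Tecpr2 (0.92) and Vash1 (0.91). These values are over 9 libraries that share 3 conditions and differ in depth, and are a description only.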

How the data were processed

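The 9 libraries were assigned to control, hypoxia and hypoxia + rSRGN from the sample labels, with replicate numbers from the titles. The authors deposited raw fragment counts per gene, with no normalization, made per the file header with featureCounts 2.0.1 in paired-end mode over exons of GENCODE mouse release 25 (GRCm38), with no strand option. Submitters' notes name HISAT2, whose version is not given in the sources used here. The 0.05 and 1.5-fold limits were applied to edgeR 4.0.16 quasi-likelihood tests (R 4.3.3) after filterByExpr (minimum count 10) and TMM scaling, with 1 mean per group and Benjamini-Hochberg adjustment over 16762 genes. SE is the log2 difference divided by the square root of F. Kdr to Flt1 and like ratios used counts plus 0.5 per kilobase and exact permutation tests. The test code was checked on simulated counts. The 10 members and the gene lists were chosen with earlier results of these data known. Named genes are the 10 members, their ligands and partners, and from every other list and comparison at most the 2 largest rises and 2 largest falls among called, non-overlapping genes with a mean of at least 1 CPM. The alternatives were DESeq2 1.42.0, RLE scaling, library size alone, a fit without mitochondrial and cardiomyocyte genes, other count filters, no fold limit, fits of 2 groups alone, a replicate block and each library left out. Replicates of a group differed by 3.63 to 13.1 times counting noise (chi-square per degree of freedom), so none was a copy. No batch is given in the labels.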

Additional observations from a re-analysis of the deposited data

How the results depend on the processing

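Of the counts of genes called, 157 alternative values stayed within 1.5 times the reported count and 5 did not. Of the ratio differences, 60 kept their sign and 3 did not; their exact p cannot go below 0.1, so the threshold says nothing about their stability. With no fold limit, 2 of the 10 endothelial genes were higher in hypoxia and 2 with rSRGN against hypoxia, Flt1 being the added gene in both, and 2790 of all genes were called between the hypoxic groups. With the fold limit that count was 525, and ran from 321 (without hypoxia replicate 3) to 699 when 1 library was left out. Leaving out 1 library gave 3 to 6 lower members in hypoxia + rSRGN against control. The uncalled ratio differences between the hypoxic groups ran from -0.49 to 0.15 for Tek to Tie1 (above 0 without hypoxia replicate 2 or hypoxia + rSRGN replicate 1) and from -0.64 to 0.44 for Angpt2 to Angpt1 (above 0 without hypoxia replicate 3). The causes were not tested.

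Single log2 differences that changed sign when 1 library was left out were all uncalled. In hypoxia against control, Tek ran from -0.0079 to 0.14, Egfl7 from -0.040 to 0.34 and Mmrn2 from -0.14 to 0.30. Between the hypoxic groups, Tek ran from -0.18 to 0.015, Tie1 from -0.18 to 0.43, Emcn from -0.20 to 0.10, Egfl7 from -0.24 to 0.15, Cldn5 from -0.47 to 0.34, Angpt1 from -0.013 to 0.65, Fli1 from -0.080 to 0.034 and Plvap from -0.087 to 0.0085. In hypoxia + rSRGN against control, Tek ran from -0.092 to 0.10 and Egfl7 from -0.051 to 0.23, and Tek was -0.015 with 1 count in any library as the filter. Cldn5, Erg and Adgrl4 could not be fitted with at least 10 counts in every library. Between the hypoxic groups, Cldn5 and Adgrl4 have no value with only those groups in the fit, nor Cldn5 under DESeq2.

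Replicate numbers are not known to pair the libraries. Deviations of same-numbered libraries correlated at -0.037 to 0.021 over 9 pairs. That shows no pairing over all genes but cannot exclude a weak one. The replicate block left 1 member higher and 6 lower in hypoxia, 1 and 0 with rSRGN against hypoxia, and 2 and 6 in hypoxia + rSRGN against control, the same numbers as without it. Among the 10 members depth limits Cldn5 most, at 7 to 16 fragments in the hypoxic libraries.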
